A study of Arabidopsis thaliana with 69 samples.

Results

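Small RNA libraries, cleavage-product libraries and transcriptomes of Arabidopsis (Arabidopsis thaliana) embryos were examined for miR319 and for the TCP transcripts that carry a miR319 site. The members were miR319a, miR319b and miR319c, which are 3 of 427 mature miRNAs in the sRNA-seq tables, together with TCP2, TCP3, TCP4, TCP10 and TCP24, which are 5 of 37688 genes in the mRNA-seq tables. Members were taken by name, by a rule that uses no measured value, although earlier results of these data were known when the genes were picked. The series holds 33 sRNA-seq, 33 nanoPARE and 3 mRNA-seq libraries, all in the Col-0 accession. Wild-type embryos were collected at 8 stages, namely preglobular (8-cell/16-cell) and globular, both heart stages (early, late), both torpedo stages (early, late), bent cotyledon and, last, mature green, with 3 replicate pools of embryos per stage that came from different plants and days. Globular dcl1-5 embryos, which lack the enzyme DICER-LIKE1 that cuts miRNAs from their precursors, were picked by their abnormal shape from selfed heterozygous plants (3 replicates for each assay). Seedling roots and shoots of xrn4-5, a mutant of the exoribonuclease that degrades uncapped RNA fragments, were profiled by nanoPARE with 3 replicates each. Single sRNA-seq libraries came from rosette and cauline leaves, from unopened floral buds and from 50, 5, 1 and 0.5 ng of bent-cotyledon RNA.

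The miR319 family guides cleavage of mRNAs for TCP transcription factors of the CINCINNATA (CIN) type. In leaves these factors are known to restrain cell proliferation at the margins and to promote differentiation, and an excess of miR319 gives crinkled leaves. miR319 is close in sequence to miR159, a family that mainly targets GAMYB-like MYB mRNAs.

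The mature sequences were read from RefSeq's TAIR10.1 assembly, and that of miR159c, the miR159 member closest to miR319, is shown with them. All run 5′ to 3′, and capitals mark the seed, bases 2 to 8.
miR319a: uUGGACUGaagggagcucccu
miR319b: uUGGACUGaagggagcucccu
miR319c: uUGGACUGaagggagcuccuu
miR159c: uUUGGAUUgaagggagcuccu
All 3 members shared the seed UGGACUG. miR319a (locus AT4G23713, chromosome 4, positions 12353109 to 12353129, plus strand) and miR319b (AT5G41663, chromosome 5, positions 16660469 to 16660489, minus strand) were identical, so that the separate levels of these 2 loci rest on how the authors divided shared reads. miR319c (AT2G40805, chromosome 2, positions 17029870 to 17029890, plus strand) differed from them by C20U, counted from the 5′ end. With base 1 of miR319c set beside base 2 of miR159c, 19 of 20 bases were shared, and the remaining difference was C6U.

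The 5 target sites are shown because the cleavage results rest on them. Each is 21 bases of the coding sequence, written 5′ to 3′ from TAIR10.1, and capitals mark bases that form no Watson-Crick pair with the miR319 member the site is listed for.
TCP2, for miR319a: CAggGgGAcccttcagtccaa
TCP24, for miR319a: TAggGgGAcccttcagtccaa
TCP3, for miR319c: GaggGgTCcccttcagtccaT
TCP4, for miR319c: GaggGgTCcccttcagtccaG
TCP10, for miR319c: aaggGgTAcccttcagtccaG
The sites lay at chr4:10163402-10163422 (TCP2, minus strand, exon 3 of 3), chr1:10628989-10629009 (TCP24, minus strand, exon 3 of 4), chr1:19850522-19850542 (TCP3, minus strand, exon 1 of 2), chr3:5063300-5063320 (TCP4, plus strand, exon 2 of 3) and chr2:13221210-13221230 (TCP10, minus strand, exon 1 of 2). All 5 paired without a break with bases 2 to 13 of miR319, and the unpaired bases sat toward the miRNA's 3′ end or opposite its base 1. Counted without gaps, TCP2 and TCP24 had 4 mismatches and 1 G:U pair, and TCP4 and TCP10 had 1 mismatch each, with 4 and 3 G:U pairs. A pairing score in which a mismatch costs 1, a G:U pair costs 0.5 and both double at bases 2 to 13 equalled the deposited score of TCP3 (3.5), TCP4 (3) and TCP10 (2.5). It was 4.5 for TCP2 and TCP24, where the deposited score was 2.5. The reason for this gap was not tested. By the ungapped score, miR319c paired better than miR319a at every one of the 5 sites by 1 point, since its U at base 20 pairs with an A at each of them. The deposited cleavage position was 1136 in the TCP2 transcript, whose site spans 1126 to 1146, and it lay 10 bases after the first base of the site in this gene as in TCP3, TCP4 and TCP10. For TCP24 the deposited position, 1022, lay outside the site at 1032 to 1052 of the RefSeq transcript, so this site was placed by its pairing alone.

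Levels are given as reads per 1000000 genome-matching reads (RPM), summed over reads of 20 to 24 bases. Depth ranged from 1665910 to 52374394 genome-matching reads over the 24 wild-type embryo libraries and from 7505988 to 30156110 in dcl1-5, and a level of 3 reads corresponded to 0.0573 to 1.80 RPM in wild type, with early heart libraries the shallowest. Total miRNA RPM ranged from 18665 to 64364 in wild type and from 207 to 426 in dcl1-5. In bulk samples, fewer cells that hold a miRNA and less of it per cell cannot be told apart. Globular and earlier samples were tried over a higher range of PCR cycles than later ones, and the number used for each library is not given in the sources used here, so that amplification cannot be told apart from the comparison of early with later embryos. Intervals on single libraries cover counting error only, since reads carry no molecular identifiers.

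miR319 was present from the earliest stage, and its level was highest around the torpedo stages. The summed level was 330 ± 139 RPM in preglobular, 228 ± 45.8 in globular, 443 ± 213 in early heart and 578 ± 93.1 in late heart embryos (mean ± SD, n = 3 each). It was 1327 ± 789 RPM in early torpedo, 1577 ± 609 in late torpedo, 1116 ± 159 in bent cotyledon and 700 ± 390 in mature green embryos. By stage mean the order was therefore late torpedo, early torpedo, bent cotyledon, mature green, late heart, early heart, preglobular and globular, and the replicate ranges of neighbours in this order overlapped in all 7 pairs. Among 319 families, miR319 ranked 13 by mean level in each of the first 3 stages, 12 in late heart, 8 from early torpedo to bent cotyledon and 9 in mature green embryos.

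Across the 8 stages, summed miR319 differed by 2.74 between the highest and lowest stage means on the log2(RPM + 1) scale (limma, moderated F test, adjusted p = 2.27e-05). Such a difference was common, with 96.6% of 58 families tested past the same threshold of 0.05. From preglobular and globular embryos, called pre-cotyledon stages here, to the 5 stages from early heart to bent cotyledon, called transition stages, miR319 rose by 1.71 (SE 0.25, adjusted p = 2.81e-06), when 74.1% of families were higher. The median family rose by 1.44, so that miR319 stood close to the middle, at rank 23 of 58. In edgeR with TMM, which moved the median family to 0.37, the rise was 0.61 (adjusted p = 0.0505) and the range over the stages 1.61 (adjusted p = 0.0519), both short of the threshold. With 21-base reads alone they were 0.58 (adjusted p = 0.0257) and 1.6 (adjusted p = 0.00941), and scaled to total miRNA reads 0.89 (adjusted p = 0.00203) and 1.39 (adjusted p = 0.0235). The difference between mature green and transition stages was -0.43 (SE 0.33, adjusted p = 0.253), in a comparison where 48.3% of families were lower and 25.9% higher. Without mature green replicate 2 it was -0.86 and passed the threshold (adjusted p = 0.0447). Of the 7 steps between adjacent stages, 0 passed for summed miR319 by limma or edgeR, while 79.3% of families passed in at least 1 step. By limma 1 step had an unadjusted p under 0.05, from late heart to early torpedo (1.06, adjusted p = 0.0837).

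The summed level hid a change between members. In preglobular and globular embryos nearly all miR319 was assigned to miR319a, and from late heart onward miR319c made up the larger part in most libraries. miR319c was 7.99, 0.833 and 3.90 RPM in preglobular and 0.929, 6.03 and 3.97 RPM in globular embryos (replicates 1, 2 and 3), from as few as 5 reads. It was 55.3, 44.4 and 63.6 RPM in early heart and 373, 254 and 306 RPM in late heart embryos. All early heart libraries thus lay above all earlier libraries and below all late heart libraries.

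The highest miR319c levels were reached in the torpedo stages, with 590, 1750 and 590 RPM in early torpedo and 1494, 567 and 707 RPM in late torpedo embryos. It was 596, 733 and 487 RPM in bent cotyledon and 253, 715 and 257 RPM in mature green embryos. In the order of stage means, early torpedo, late torpedo, bent cotyledon, mature green, late heart, early heart, preglobular and globular, neighbours overlapped except late heart with early heart and early heart with preglobular. Single libraries stood high in 3 of these groups, namely early torpedo replicate 2, late torpedo replicate 1 and mature green replicate 2.

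**Figure D1:**
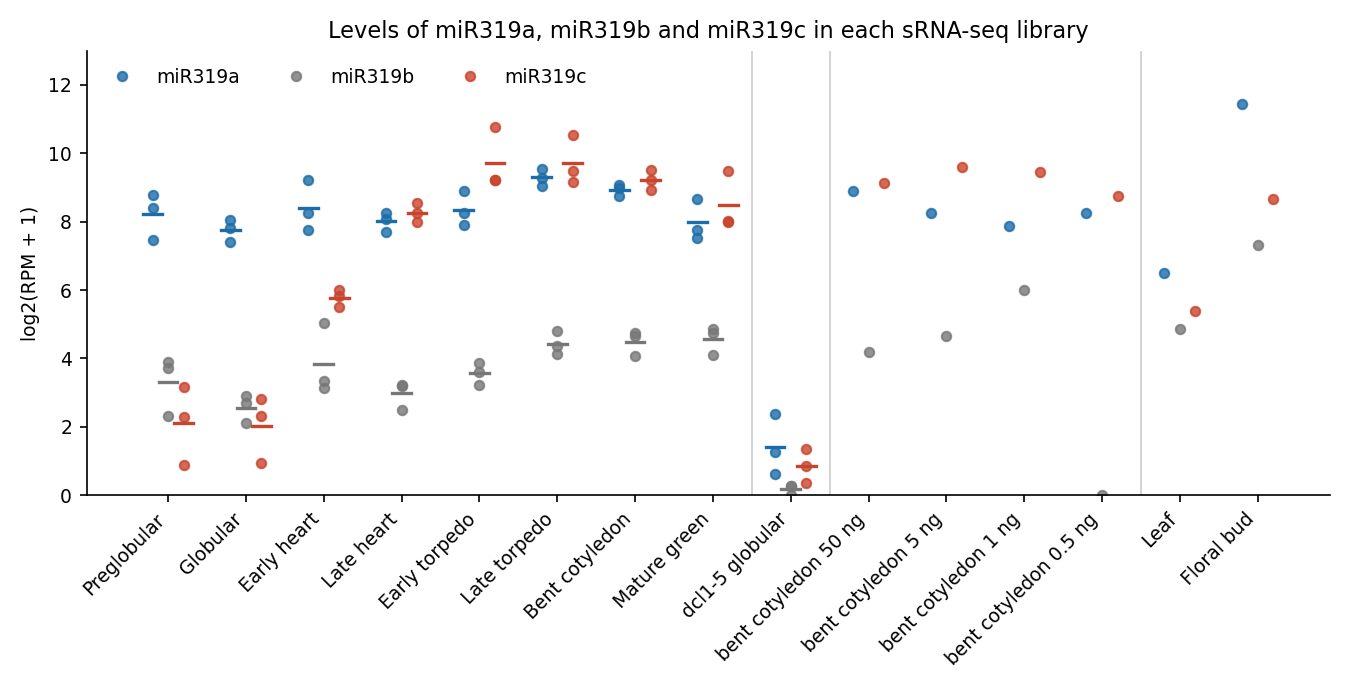
Level of miR319a, miR319b and miR319c as log2(RPM + 1) in every sRNA-seq library; points are libraries and short bars are the mean of 3 replicates, while the dilution, leaf and floral bud groups hold 1 library each. miR319c is at most 7.99 RPM in the 6 preglobular and globular libraries and at least 44.4 RPM in the 18 libraries from early heart onward, while miR319a stays between 168 and 745 RPM in all 24.

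From pre-cotyledon to transition stages miR319c rose by 6.48 (log2(RPM + 1), SE 0.36, limma adjusted p = 1.72e-11), the largest rise among 81 mature miRNAs tested. A miRNA was tested if it averaged at least 10 RPM in some stage. miR319c met this only in later stages, as its mean was 4.24 RPM in preglobular and 3.64 RPM in globular embryos. The filter thus favours rises out of these stages, so the rank and p-values of miR319c describe such rises rather than test them. By RPM all 3 members were called higher in this comparison, against 65.4% of the mature miRNAs, and all 3 differed between the 8 stages (F test, adjusted p = 5.85e-10 for miR319c, 0.00397 for miR319b and 0.023 for miR319a), against 84%. The stage call of miR319a was lost when scaled to total miRNA reads (0.93, adjusted p = 0.169) and without late torpedo replicate 1 (adjusted p = 0.0772) or replicate 3 (adjusted p = 0.0588). miR319c was 1 of 10 mature miRNAs (12.3%) with all 15 transition libraries above all 6 pre-cotyledon libraries. Between adjacent stages, it rose from globular to early heart (3.75, SE 0.61, adjusted p = 0.000173; 13.6% of mature miRNAs higher) and from early to late heart (2.49, adjusted p = 0.00895; 11.1% higher). The remaining 5 steps did not pass (adjusted p = 0.103 to 0.989), in at least 1 of which 56.8% of mature miRNAs passed. Both heart-stage steps fell short of the threshold when only 21-base reads were counted (1.20, adjusted p = 0.0805, and 0.95, adjusted p = 0.235), a restriction that leaves out most miR319c reads, while the step from late heart to early torpedo then passed (1.88, adjusted p = 0.0128). In edgeR with TMM the step from early to late heart also fell short (2.15, adjusted p = 0.0965). With 21-base reads the rise from pre-cotyledon to transition stages was 3.53 (adjusted p = 8.86e-10).

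miR319a was far steadier. It was 434, 176 and 338 RPM in preglobular, 225, 168 and 264 RPM in globular and 599, 303 and 216 RPM in early heart embryos. In late heart it was 304, 269 and 208 RPM, in early torpedo 238, 473 and 307 RPM and in late torpedo embryos 745, 530 and 625 RPM. It was 536, 501 and 428 RPM in bent cotyledon and 213, 407 and 184 RPM in mature green embryos. Its lowest and highest libraries over all 24 differed 4.44-fold, against 2101-fold for miR319c.

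By RPM, the transition stages exceeded the earlier ones in miR319a by 0.62 (SE 0.24, adjusted p = 0.0245), but this value was -0.20 (adjusted p = 0.467) when scaled to total miRNA reads and -0.54 (adjusted p = 0.0436) in edgeR with TMM, so that no direction is drawn for it. Leaving out preglobular replicate 2 or globular replicate 2 also ended the call (0.43, adjusted p = 0.105, and 0.53, adjusted p = 0.0782). For miR319c the same rise was 5.81 (adjusted p = 2.45e-11) scaled to total miRNA reads and 5.42 (adjusted p = 1.33e-07) in edgeR with TMM. miR319b was low throughout, from 3.28 to 14.0 RPM in pre-cotyledon, 4.65 to 31.5 RPM in transition and 16.2 to 28.3 RPM in mature green libraries. Its difference between the first 2 of these groups was 0.92 by RPM (adjusted p = 0.00613) and -0.18 in edgeR with TMM (adjusted p = 0.748). No member passed between mature green and transition stages (adjusted p = 0.0957 to 0.939), where 34.6% of mature miRNAs were lower and 16% higher. miR319b passed as higher when scaled to total miRNA reads (1.04, adjusted p = 0.0295), in edgeR with TMM (1.33, adjusted p = 0.00993) and without early heart replicate 1 (0.84, adjusted p = 0.0284). miR319a passed as lower with 21-base reads (-0.75, adjusted p = 0.046) and without mature green replicate 2 (-0.96, adjusted p = 0.0263).

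A ratio of both main members within a library depends on the library's scaling only through the added 1 RPM. The log2 ratio of miR319c to miR319a, each with 1 RPM added, was -5.92 ± 0.82 (SD, n = 6, range -6.87 to -4.58) in pre-cotyledon and -0.06 ± 1.47 (n = 15, range -3.41 to 1.88) in transition stages. These ranges did not overlap, and the difference was 5.86, or 3.06 with 21-base reads alone. The ratio was chosen after the levels of both members were seen, so the difference is given as a description, with no test. As a share of summed miR319, miR319c averaged 1.11% in preglobular, 1.74% in globular, 14.2% in early heart, 53.8% in late heart and 71.3% in early torpedo embryos. Later shares were 56.4% in late torpedo, 54.0% in bent cotyledon and 56.6% in mature green embryos, with single libraries from 47.8% to 78.2% from late heart onward.

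**Figure D2:**
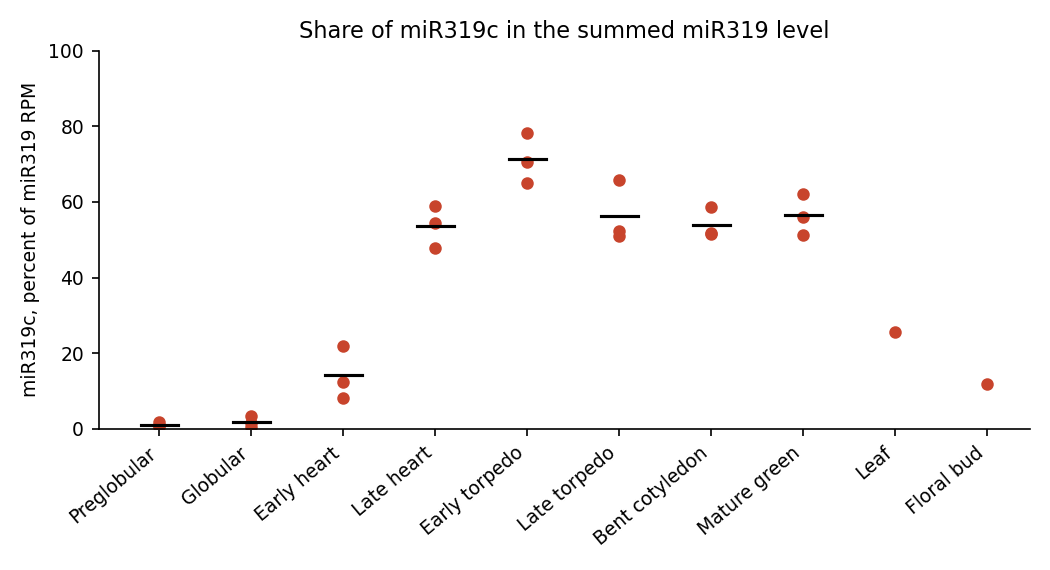
Share of miR319c in summed miR319 RPM (percent) by stage, with leaf and floral bud; points are libraries and bars the mean of 3 replicates. The share is at most 3.35% in the 6 preglobular and globular libraries, 8.07% to 22% in early heart and 47.8% to 78.2% from late heart onward.

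Leaf and floral bud differed from late embryos in the same ratio, with 1 library each and hence no test. In leaf, miR319a was 89.96 RPM (95% exact Poisson interval 68.9 to 115), miR319b 27.9 RPM (16.8 to 43.5) and miR319c 40.7 RPM (27.1 to 58.9). In floral bud, where miR319a is known to act in petal growth, miR319a was 2796 RPM (2735 to 2858), miR319b 159 RPM (145 to 174) and miR319c 401 RPM (378 to 425). The share of miR319c was 25.7% in leaf (95% Wilson interval 18.4% to 34.6%) and 11.9% in floral bud (11.3% to 12.6%), both between the shares of globular and late heart embryos.

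Members also differed in read length, a feature that the annotated sequences of 21 bases do not show. Over the 24 wild-type libraries, 89.5% of 193916 miR319c reads were 22 bases long and 4.94% were 21 bases long. For miR319a, 77.5% of 154255 reads were 21 bases long and 12.3% were 22 bases long, and for miR319b these shares were 69.0% and 16.9%. From late heart onward, single libraries ranged from 84.1% to 93.7% in 22-base reads for miR319c and from 9.75% to 17.4% for miR319a, without overlap. Only 11 of 96 mature miRNAs with at least 1000 reads (11.5%) were mostly 22 bases long, the median share was 2.40%, and miR319c ranked 3. In pre-cotyledon embryos 50.8% of the 423 miR319c reads had 22 bases, and 3 of 6 libraries held fewer than 50 reads. The floral bud library had 81.2% of miR319c in 22-base reads and the leaf library 75.0%, the latter of 28 reads.

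**Figure D3:**
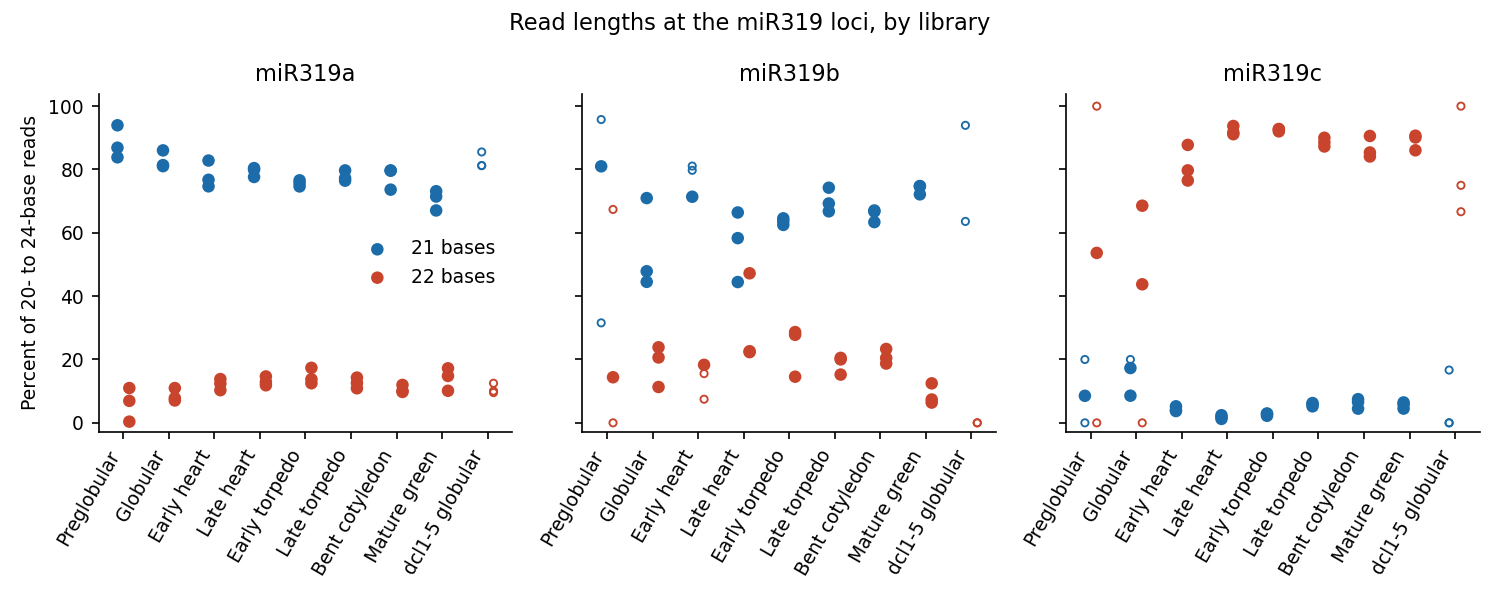
Percent of 20- to 24-base reads that are 21 bases (blue) or 22 bases (red) long, for each member in each wild-type and dcl1-5 embryo library; open points rest on fewer than 50 reads. miR319a reads are mainly 21 bases long in every library, with at least 67.1%, and miR319c reads mainly 22 bases long from early heart onward, with at least 76.5%.

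In dcl1-5 globular embryos summed miR319 was nearly gone. It was 232, 180 and 271 RPM in wild-type globular and 2.09, 1.88 and 5.20 RPM in dcl1-5 libraries, a change of -5.89 (log2(RPM + 1), SE 0.37, limma adjusted p = 0.000158). In the same comparison 70.7% of families were lower, and in the same share of families all dcl1-5 libraries lay below all wild-type libraries. The median family changed by -2.97. When scaled to total miRNA reads, which themselves were nearly lost in the mutant, the miR319 difference was -0.00 (adjusted p = 1), and in edgeR with TMM it was 0.41 (adjusted p = 0.589).

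miR319a carried this loss, from 225, 168 and 264 RPM to 0.531, 1.38 and 4.19 RPM (-6.34, SE 0.51, adjusted p = 0.00026). miR319b fell from 5.47, 6.40 and 3.28 RPM to 0, 0.213 and 0.209 RPM (-2.38, SE 0.28, adjusted p = 0.000912), the mutant values resting on at most 3.07 reads. miR319c, at 0.929, 6.03 and 3.97 RPM in wild type, was 1.56, 0.278 and 0.799 RPM in dcl1-5 (-1.17, SE 0.58, adjusted p = 0.135). Hence 2 of 3 members were lower, against 64.2% of mature miRNAs, and in the same 2 all mutant libraries lay below all wild-type libraries, against 66.7%. For miR319c the groups overlapped, because wild-type replicate 1 had fewer reads for it (15) than dcl1-5 replicate 1 (47, all of 22 bases). Without wild-type replicate 1, the difference was -1.71 and passed the threshold (adjusted p = 0.0208). Scaled to total miRNA reads, the difference was -0.85 for miR319a (adjusted p = 0.412), 0.13 for miR319b (adjusted p = 0.98) and 4.0 for miR319c (adjusted p = 0.0449). By this scaling the share of miR319c among the few remaining miRNA reads was higher in the mutant, where it rested on 47, 4 and 6 reads. In edgeR with TMM the miR319c difference was 4.08 and did not pass (adjusted p = 0.139).

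Among other families with at least 10 mean RPM in a stage, the 3 whose log2(RPM + 1) followed summed miR319 most closely over the 24 wild-type libraries were miR447.2 (Pearson's r = 0.913), miR158 (0.909) and miR159 (0.883). The 3 least like it were miR866-3p (-0.725), miR845 (-0.619) and miR156b-3p (-0.589), all of 57 families. Of these, miR866-3p was at rank 54 (r = -0.54) when scaled to total miRNA reads and at rank 48 (r = -0.05) with 21-base reads. These values describe libraries that share stage, depth and scaling, and with 21-base reads alone the first 3 families had r of 0.631, 0.615 and 0.507, at ranks 4, 5 and 9. For miR319c taken alone the closest were miR159 (0.942), miR165/166 (0.936) and miR390 (0.918). Between members, r was 0.69 for miR319a with miR319b, 0.49 for miR319a with miR319c and 0.58 for miR319b with miR319c.

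miR159, miR164 and miR396 are given beside miR319, the first for its sequence and the others because TCP proteins are known to activate their genes. miR159 rose with miR319, from 956 ± 168 RPM in globular to 7139 ± 1142 RPM in late torpedo embryos (transition against pre-cotyledon 2.02, SE 0.15, adjusted p = 3.9e-11). miR164, which targets CUC boundary genes and whose gene MIR164A is activated by TCP3, was 2.82 ± 3.11 RPM in globular, 20.7 ± 2.10 RPM in late heart and 4.97 ± 0.97 RPM in mature green embryos (2.96, SE 0.33, adjusted p = 4.71e-08). miR396, which targets GRF growth regulators and is activated by TCP4 in leaves, was at 0 to 49.9 RPM in pre-cotyledon libraries and at 2.07 to 6.38 RPM in later ones (-0.63, SE 0.46, adjusted p = 0.204). In the single leaf library miR396 was 4730 RPM, miR164 370 RPM and miR159 57783 RPM. The single floral bud library had 3017, 152 and 9590 RPM of them, in the same order.

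Cleavage of the targets was read from nanoPARE, which sequences RNA 5′ ends. The deposited level is the RPM at the predicted cleavage position, and positions that a library did not list were set to 0. The depth of these libraries is not known here. Each wild-type library listed 131 to 356 positions, of which 13 to 58 had an adjusted p under 0.05 from the authors' EndCut software, here called significant. Embryo libraries have active XRN4, which degrades the 3′ fragments measured.

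Of all 54 listings for miR319 in the files, 42 were in the 5 TCP genes and 39 of these were significant. In wild-type embryos 38 of 40 TCP listings were significant, against 14.9% of all 5673 listings. The 5 genes were picked for a miR319 site, with earlier results known, while all listings include poorly paired positions. This contrast therefore tests nothing about the members. Significant TCP sites were spread over 18 of the 24 libraries and were present in all 12 from early heart to late torpedo. In these 12 libraries 28 of 60 pairs of gene and library (46.7%) were significant. In the other wild-type stages 10 of 60 (16.7%) were, of which preglobular and globular embryos held 2 of 30 (6.67%). Genes of the same library are not independent, so these shares are a description with no test. The number of significant positions for all miRNAs moved the same way, with 37 to 58 per library from early heart to late torpedo and 13 to 32 in preglobular and globular embryos, and its part in the TCP result was not tested.

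TCP2, a CIN gene that acts with its close relative TCP24 in leaf growth, had the highest stage means of the 5 in late heart and both torpedo stages. Its position was at 0, 1.20 and 0.801 RPM in early heart, 1.43, 1.6 and 1.33 RPM in late heart and 0.884, 0.244 and 0.481 RPM in early torpedo embryos. It was at 0.880, 3.98 and 0.589 RPM in late torpedo embryos and at 0.607 RPM in bent cotyledon replicate 2 alone, and it was not listed in preglobular, globular or mature green embryos. All 12 listings were significant, and the 3.98 RPM of late torpedo replicate 2 was the highest level of any TCP position.

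Across the 8 stages the TCP2 position differed by 1.30 between the highest and lowest stage means (log2(RPM + 1), limma F test, adjusted p = 0.00103). It was the only one of 5 members past the threshold, against 6.98% of 616 positions tested. Leaving out any 1 library kept this call (adjusted p = 0.000342 to 0.00333). TCP2 entered the fit only through listings from early heart to bent cotyledon embryos, and unlisted libraries counted as 0 at unknown depth. The call and its leave-one-out range therefore describe where the position was listed and give no separate support. The other 4 members had adjusted p from 0.347 to 0.741.

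The TCP24 position was listed in as many libraries, 12, but over 7 stages, and every listing was significant. It was at 1.20, 0.325 and 0.970 RPM in early heart, the only stage with all 3 replicates, and at 1.43, 0.401 and 0 RPM in late heart embryos. In early torpedo it was at 0, 0.260 and 0.653 RPM and in late torpedo embryos at 0.170, 1.02 and 0 RPM. Single libraries held it in globular (1.05 RPM, replicate 1), bent cotyledon (0.112 RPM, replicate 3) and mature green embryos (0.377 RPM, replicate 2). Between stages its spread within a stage was thus as wide as its differences (0.84, adjusted p = 0.347).

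TCP4 and TCP3, which control jasmonate synthesis and boundary genes respectively in leaves, were listed less often. The TCP4 position was at 0, 0.374 and 0.980 RPM in late heart, at 0, 0.682 and 0.412 RPM in bent cotyledon and in 1 library each of early torpedo (0.510 RPM) and late torpedo embryos (1.03 RPM). These 6 were significant, while 0.260 RPM in preglobular replicate 2 was not (adjusted p = 0.133). The TCP3 position was significant at 0.444 RPM in globular replicate 3, 0.293 RPM in early torpedo replicate 3, 0.839 RPM in late torpedo replicate 2 and 0.335 and 0.585 RPM in mature green replicates 1 and 2. It was the member listed most often in mature green embryos.

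TCP10 was listed in 3 libraries, each of a different stage, at 0.363 RPM (early heart), 0.151 RPM (late torpedo) and 0.128 RPM (bent cotyledon), all significant. All 5 genes were thus significant in at least 1 library, against 8.02% of 1483 positions listed in wild-type embryos. Counting as high confidence, as the study did, a position that was significant in 2 or 3 replicates of one stage, 4 of the 5 genes qualified, TCP2 and TCP24 in 4 stages each, TCP4 in 2 and TCP3 in 1. Among the 1483 positions, 4.25% met it. Both shares of all positions carry the limit given above, that the genes were picked for a miR319 site. With all 3 replicates required, TCP2 and TCP24 remained.

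**Figure D4:**
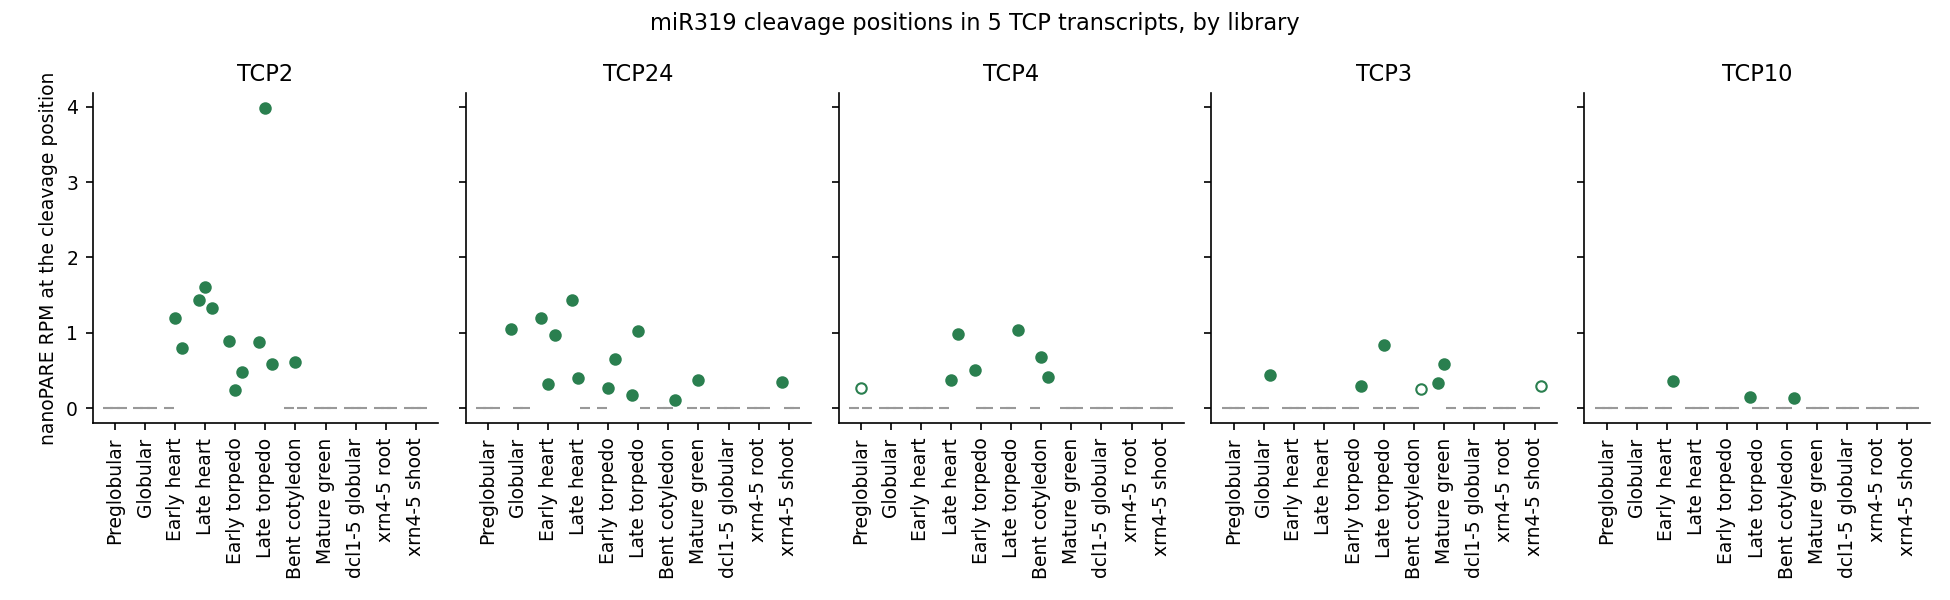
nanoPARE RPM at the miR319 cleavage position of each TCP gene, by library; circles are libraries in which the position is listed (filled where adjusted p is under 0.05, open where not), and grey dashes mark libraries where it is not listed, drawn at 0. TCP2 and TCP24 each have 12 wild-type circles, TCP4 7, TCP3 6 and TCP10 3, and none lies in dcl1-5 embryos or xrn4-5 roots.

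Summed over the 5 positions, the level was 0.0866 ± 0.150 RPM in preglobular, 0.497 ± 0.525 in globular, 1.62 ± 0.475 in early heart and 2.52 ± 0.305 in late heart embryos. It was 1.11 ± 0.524 RPM in early torpedo, 2.89 ± 2.56 in late torpedo, 0.729 ± 0.661 in bent cotyledon and 0.432 ± 0.488 in mature green embryos (SD, n = 3). By stage mean, late torpedo embryos were highest in both cleavage products and miR319, but their cleavage sum rested on replicate 2 (5.84 RPM, against 1.20 and 1.62). The sRNA-seq library numbered 2 had the lowest miR319 of that stage (1113 RPM, against 2266 in replicate 1 and 1351 in replicate 3). Whether replicate numbers match between the assays was not examined. Bent cotyledon embryos had 1116 RPM of miR319 and the lower sum of 0.729 RPM, while late heart embryos had 578 RPM and 2.52 RPM.

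In dcl1-5 globular embryos 0 of 5 positions were listed in any of 3 libraries. Wild-type globular embryos had only TCP24 in replicate 1 and TCP3 in replicate 3, so the loss was not detectable as a difference (TCP24 0.349 against 0 RPM and TCP3 0.148 against 0 RPM, two-sided exact permutation p = 1 each, n = 3 and 3, where the smallest possible is 0.1). Neither was listed in enough libraries to enter the limma fit, in which 13.7% of 124 positions passed. With positions listed in at least 1 library tested, both entered and 0 passed, none with an unadjusted p under 0.05. In that fit only 11 of all 719 positions passed. In these dcl1-5 libraries 66 to 201 positions were listed and 2 to 4 were significant in all, against 185 to 330 and 20 to 32 in wild-type globular embryos.

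In xrn4-5 seedlings, where 3′ fragments are stabilized, the miR319 positions were seldom listed. No TCP position was listed in 3 root libraries. Shoots held TCP24 at 0.347 RPM in replicate 1, which was significant, and TCP3 at 0.289 RPM in replicate 3, which was not (adjusted p = 0.0791). With each position in 1 of 6 libraries, a difference between root and shoot could not be shown (exact permutation p = 1 each, where the smallest possible is 0.1), and neither was listed in enough libraries to be fitted, where 19.4% of 103 positions passed.

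Outside the TCP genes, 12 listings in 6 genes were assigned to miR319. Only 1 was significant, at 0.399 RPM in ALDH22A1 (AT3G66658), an aldehyde dehydrogenase gene, in early torpedo replicate 1 (adjusted p = 0.0288).

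Target transcripts were measured by mRNA-seq in dcl1-5 globular embryos only, where miR319 was nearly absent. No mRNA-seq of wild-type embryos was used here, so the mutant levels stand without a comparison. Values are TPM, transcripts per 1000000 transcripts and hence a level per length, summed over the transcripts of a gene. TCP3 was at 34.7, 35.6 and 40.3 TPM (36.9 ± 3.02, SD, n = 3) and TCP4 at 20.3, 23.7 and 19.5 TPM (21.2 ± 2.24). They were the 2 highest of all 24 TCP genes, and no library of one overlapped the other. TCP10 was at 2.61, 4.99 and 3.97 TPM, TCP2 at 1.78, 0.684 and 0.776 TPM and TCP24 at 0.0233, 0.148 and 0.387 TPM, the last from 1, 5 and 14 estimated counts.

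The 5 genes summed to 63.2 ± 3.24 TPM, of which TCP3 made up 58.4% and TCP4 33.6%. Their order by TPM in the mutant was TCP3, TCP4, TCP10, TCP2 and TCP24, and their order by number of wild-type libraries with a cleavage product was TCP2 and TCP24, then TCP4, TCP3 and TCP10. These values come from different genotypes and largely from different stages. For scale, 17495 of 37688 genes had a mean of at least 1 TPM, with a median of 10.5 TPM among them, so that TCP3 and TCP4 lay above and TCP10 and TCP2 below that median.

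TCP genes without a miR319 site gave the background for these levels. Of the other CIN genes, TCP5 was at 2.10 ± 1.48 TPM, and TCP13 and TCP17 at 0.0143 and 0.00928 TPM. Of 13 class I (PCF) genes, known mainly to promote growth, 8 reached 1 TPM, led by TCP8 (15.2 ± 1.41), TCP19 (14.5 ± 4.12) and TCP22 (13.4 ± 1.55). None of the 3 CYC/TB1 genes, which control branching and flower symmetry, had a mean over 0.0644 TPM.

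**Figure D5:**
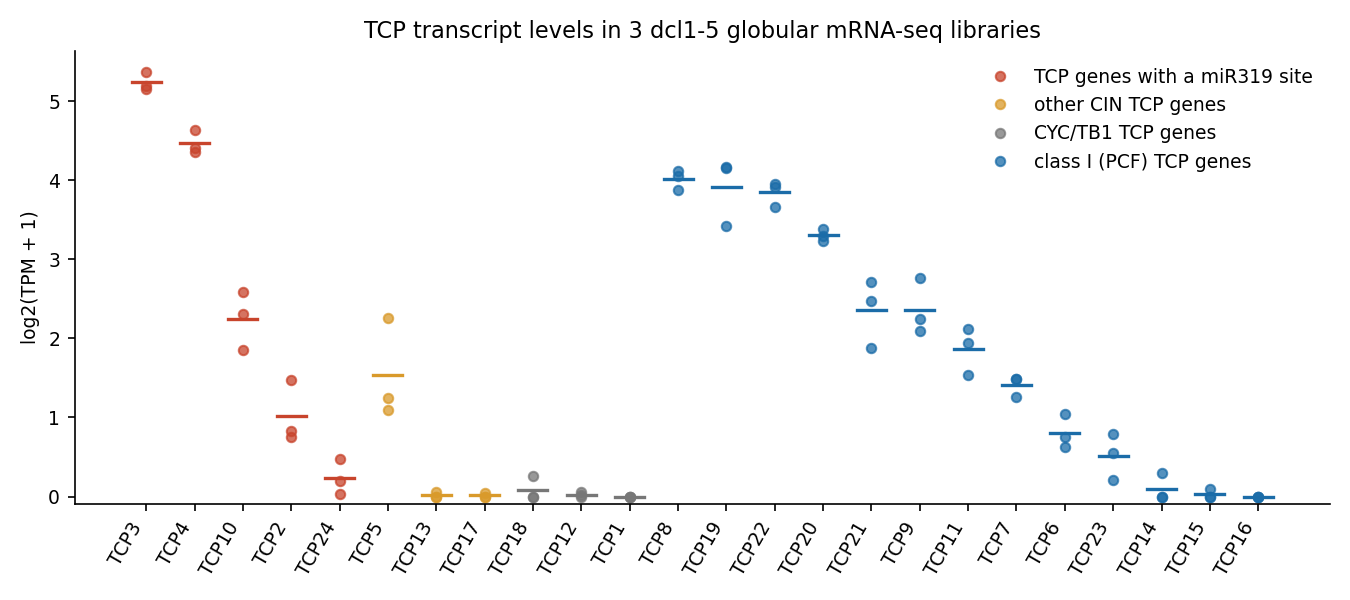
Level of each of 24 TCP genes in 3 dcl1-5 globular mRNA-seq libraries as log2(TPM + 1), grouped by clade; points are libraries and bars their means. Among the genes with a miR319 site TCP3 and TCP4 lie above every other TCP gene, and TCP24 is near 0.

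The miR319 precursor genes differed in the same libraries. MIR319a was at 127, 118 and 110 TPM, MIR319b at 8.87, 10.4 and 7.75 TPM, and MIR319c at 0 TPM in all 3. Estimated counts were 281 to 386 for MIR319a and 19 to 26 for MIR319b. These embryos lack the enzyme that cuts precursors, so precursor levels in them need not be those of wild type. In wild-type globular embryos, mature miR319c was at or below 6.03 RPM and miR319a at 168 RPM or more. In the dcl1-5 sRNA-seq libraries, miR319c was at 1.56, 0.278 and 0.799 RPM and miR319a at 0.531, 1.38 and 4.19 RPM. Precursors are short transcripts, whose counting in such libraries was not examined.

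Of 11 genes tied to CIN TCP activity, 9 reached 1 TPM, as did 17495 of all 37688 genes. The 9 included AS2 (56.4 ± 10.4) and AS1 (27.7 ± 3.26), which pattern leaf polarity, and the boundary genes CUC1 (46.1 ± 27.4), CUC2 (39.2 ± 15.0) and CUC3 (10.9 ± 1.87). The rest of the 9 were MYB65 (16.5 ± 1.76), MYB33 (11.5 ± 2.60), LNG1 (2.19 ± 0.593) and TIE1 (2.02 ± 0.196). CUC1 varied most, at 23.7, 76.7 and 37.9 TPM. LOX2, a jasmonate enzyme gene that TCP4 activates in leaves, was at 0, 0.152 and 0.0283 TPM, and IAA3 was at 0.0439 ± 0.0760 TPM.

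The mRNA-seq libraries were checked against markers. DCL1 itself was at 0.0226 to 0.0359 TPM. All 6 embryo markers reached 1 TPM (WOX2, LEC1, ABI3, FUS3, WOX8 and ATML1, summed 397 to 463 TPM). Of 5 endosperm markers only FWA did (1.88 ± 1.06), with a sum of 1.80 to 4.24 TPM, and of 5 seed coat markers STK (32.6 ± 9.71) and BAN (13.5 ± 2.68) did, with a sum of 36.1 to 56.5 TPM. None of these lists had a marker at 0 in all libraries. The part of such RNA in the TCP levels was not tested, and the sRNA-seq and nanoPARE libraries hold no markers to check.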

How the data were processed

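For sRNA-seq, the authors trimmed reads with cutadapt, aligned them to TAIR10 with STAR without mismatches, divided reads with several matches between loci by a rich-get-richer rule, and counted with bedtools; they deposited an expected count and an RPM value per miRNA and read length. For nanoPARE, the authors deposited the RPM at each cleavage position predicted by EndCut, with a pairing score, a fold change over background and an adjusted p-value. For mRNA-seq, the authors deposited an estimated count and TPM per transcript from kallisto, from 22337000 to 28896600 estimated counts per library. Depth of sRNA-seq libraries was taken from the ratio of expected count to RPM.

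Groups follow the sample labels. Families that averaged 10 RPM or more in some wild-type stage were fitted as log2(RPM + 1), on which changes of low levels are understated, with limma 3.58.1 in R 4.3.3 (intensity trend, Benjamini-Hochberg adjustment at 0.05). Stages were fitted together over 24 libraries, and dcl1-5 with wild-type globular libraries on their own; both fits share the wild-type globular libraries. Individual mature miRNAs were fitted in the same way. Positions listed in at least 3 of the libraries compared were fitted likewise. For single values, exact permutation tests were used, all two-sided. Sequences came from RefSeq's TAIR10.1 genome and annotation. All 5 genes and 3 miRNAs matched. Alternatives were a pseudocount of 0.1, other filters, individual miRNAs, total-miRNA scaling, no trend, 21-base reads, edgeR 4.0.16, one fit over 27 libraries, the replicate block and leaving out each replicate. The fits were tested on simulated data. Python 3.11.15, numpy 2.4.6, pandas 2.3.3, scipy 1.17.1 and matplotlib 3.10.9 were used.

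All members, the 3 most and least similar families, genes with a significant miR319 position, and lists of TCP, precursor, pathway and marker genes were named. Members and lists were chosen with earlier results of these data known; the ratio of miR319c to miR319a, given with no test, and the alternatives for it and for the similar families were chosen after these data were seen. The authors' fold changes were not used.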

Additional observations from a re-analysis of the deposited data

Results flagged for a closer look

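Reads of 25 to 30 bases at the miR319 loci are outside the 20- to 24-base levels reported. At miR319b they were present in 22 of 24 wild-type embryo libraries and in 0 of 3 dcl1-5 libraries, 229 reads in all, and the highest level was 3.60 RPM in preglobular replicate 1. At miR319a they were found in 5 libraries (8 reads) and at miR319c in 1 library (3 reads).

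Positions in 3 TCP transcripts that are listed for miR159c, 1 base downstream of the miR319 position, were listed in 4 wild-type libraries of later stages and in none of the dcl1-5 or wild-type globular libraries. TCP3 was at 0.409 RPM in early heart replicate 1 and at 0.158 RPM in early torpedo replicate 2, TCP4 at 0.201 RPM in early heart replicate 2 and TCP24 at 0.369 RPM in late torpedo replicate 3. All 4 missed significance in EndCut (adjusted p = 0.307 to 0.932). In these 4 libraries the miR319 position of the same gene was not listed. Groups of 3 libraries were not searched for single deviating samples.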

How the results depend on the processing

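Both scaling and read length moved the miR319 results. With 21-base reads alone, the transition value of summed miR319 was 0.58 (adjusted p = 0.0257). Scaled to total miRNA reads, the dcl1-5 difference of summed miR319 was -0.00486 (adjusted p = 1). In edgeR with TMM it was 0.41, the stage range 1.61 (adjusted p = 0.0519), transition against pre-cotyledon 0.61 (adjusted p = 0.0505) and mature green against transition 0.14 (adjusted p = 0.701). The median family moved from -2.97, 1.44 and -0.95 in the 3 contrasts by RPM to -0.54, 0.80 and -0.63 by total miRNA reads and to -0.32, 0.37 and -0.35 by TMM. With individual miRNAs the dcl1-5 value is that of miR319c, -1.17, and 2 steps passed; 1 step passed with 21-base reads. Requiring all 3 replicates left 2 high-confidence genes. The TCP sum was 51.9 TPM for the most abundant transcripts, 116 CPM and 69.9 TPM over nuclear transcripts. Under total-miRNA scaling, directions turned for miR319a (transition, -0.20), miR319b (dcl1-5, 0.13) and miR319c (dcl1-5, 4.0; mature green, 0.30). In edgeR with TMM they turned for miR319a (transition, -0.54), miR319b (dcl1-5, 0.47; transition, -0.18) and miR319c (dcl1-5, 4.08; mature green, 0.56; last step, 0.30). miR319c also turned in mature green with 21-base reads (0.43) and edgeR by genome-matching reads (0.0591), and with 21-base reads from preglobular to globular (0.21) and early to late torpedo (1.08). The causes were not tested. Leaving out single replicates gave -6.24 to -5.69 (dcl1-5), 2.44 to 2.96 (stages), 1.51 to 1.85 (transition), -0.86 to -0.19 (mature green), 0 to 1 steps and 62.2 to 65.1 TPM; for miR319c they gave -0.55 to 0.20 in mature green, -0.71 to 0.45 from preglobular to globular and -0.42 to 0.51 from early to late torpedo.

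Within each assay, replicate numbers did not pair libraries of different groups: deviations of same-numbered libraries had a median r of 0.0121 (sRNA-seq) and 0.00638 (nanoPARE). All pairs exceeded 0.1 in 1 of 36 and 0 of 55 pairs of groups. Pairing between the assays was not examined. The paper used the same wild-type RNA pools for sRNA-seq and nanoPARE, except at the bent-cotyledon stage. With the replicate number as a block, the dcl1-5 value stayed at -5.89 (adjusted p = 0.000757), the transition value at 1.71 (adjusted p = 5.43e-06) and TCP2 past the threshold (adjusted p = 0.000789), and no call of a member changed. Depth limits miR319c in globular and earlier embryos, with 5 to 208 reads, and the TCP positions, whose library depth is not known.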

Other observations

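In the dilution series of bent-cotyledon RNA, 1 library per amount, summed miR319 was 1053 RPM from 50 ng, 1094 RPM from 5 ng, 1002 RPM from 1 ng (95% exact Poisson interval 918 to 1093) and 734 RPM from 0.5 ng (682 to 788). The 3 replicate bent-cotyledon libraries, whose amount of RNA is not labelled, had 940 to 1250 RPM. miR319c was 562, 768, 705 and 430 RPM from 50, 5, 1 and 0.5 ng, and miR319a was 473, 302, 235 and 303 RPM. The share of miR319c was 53.4% from 50 ng (95% Wilson interval 52.5% to 54.3%), 70.2% from 5 ng (68.9% to 71.4%), 70.3% from 1 ng (66.3% to 74.1%) and 58.6% from 0.5 ng (55.1% to 62.1%). The 50-ng share lay within the range of the replicate libraries (51.5% to 58.6%), and those from 5 and 1 ng lay above it. miR319b was at 17.1, 24.2 and 62.6 RPM and was not detected from 0.5 ng, where 3 reads correspond to 2.93 RPM.

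In the nanoPARE tables, the remaining miR319 listings that were not significant included MYB65, a GAMYB-like gene known mainly as a miR159 target, at 0.172 RPM in globular replicate 3 (adjusted p = 0.0962), and AT3G05560, which was listed in 6 libraries with adjusted p of 0.9998 or more. The TCP4 transcripts of dcl1-5 embryos were spread over isoforms, with AT3G15030.3 making up 48.7%, AT3G15030.4 33.0% and AT3G15030.1 15.8% of its TPM, whereas TCP3, TCP10 and TCP24 each came from 1 transcript model.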
